A study of Mus musculus with 6 samples.

Results

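The 7 enzymes described here make cysteine from homocysteine or handle the sulfur that cysteine releases. They were chosen by name, as the rows of the deposited gene table called Cbs, Cth, Mpst, Tst, Sqor, Ethe1 and Suox. All 7 were found among 54532 genes, and all 7 were among the 16623 genes that passed the filter on low counts. In transsulfuration, Cbs joins homocysteine and serine to cystathionine, and Cth cleaves cystathionine to cysteine. Mpst moves sulfur from 3-mercaptopyruvate, a product of cysteine, onto acceptors, and in mitochondria Sqor oxidises hydrogen sulfide, Ethe1 turns the resulting persulfide into sulfite, Tst carries sulfur between persulfides, sulfite and thiosulfate, and Suox oxidises sulfite to sulfate. Cdo1, the gene deleted in this study, oxidises cysteine to cysteine sulfinate, so it uses the amino acid that these enzymes make or whose sulfur they handle.

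RNA of inguinal white adipose tissue (iWAT), a subcutaneous fat depot, was sequenced from mice that started a high-fat diet at 8 weeks of age and ate it for 15 weeks. The Control group held 3 samples of Cdo1 flox/flox mice, which the labels also call WT, and the Cdo1AKO group held 3 samples of mice with Cdo1 knocked out in adipose tissue. The Cre driver and the floxed exons are not given in the sources used here. Nothing in those sources says whether each sample came from its own animal, so the p-values measure only how far these samples vary, and part of that may be technical. In bulk tissue, fewer cells of a type and less RNA per cell cannot be told apart.

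The libraries held 16275184 to 19205804 counts each. Cdo1 lay between 432 and 887 CPM (read counts scaled to library size, here with the TMM method of edgeR) in Control and between 123 and 392 CPM in Cdo1AKO, with Cdo1AKO 2 at the top of its group. Its log2 fold change was -1.59 ± 0.53 (SE), with an adjusted p of 0.416 by the quasi-likelihood test of edgeR and 0.0736 by DESeq2. All 10 adipocyte markers were detected in every library, and they summed to 28720 to 42400 CPM in Control and to 18440, 39640 and 19510 CPM in Cdo1AKO 1, 2 and 3. Control 1 and Cdo1AKO 2 also stood apart from the other libraries because they lacked lymph node transcripts. The median of 13 lymph node and B cell markers was 0.0614 and 0.386 CPM in these libraries, against 51.6 to 98.6 CPM in the other 4. The edgeR value of Cdo1 was -1.76 (adjusted p 0.0256) with a term for lymph node transcripts, -2.05 (adjusted p 0.00345) in the 4 libraries that hold them, and -2.33 (adjusted p 0.0719) without Cdo1AKO 2. Where the call or the sign of 1 of the 7 enzymes moves with Cdo1AKO 2 or with this split, it is given both ways.

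Tst and Mpst are the closest relatives in the set, and their sequences and positions are given first because their transcripts differed unequally between the groups. In the deposited coordinates, whose genome build the submitters' processing notes name as mm10, Tst (ENSMUSG00000044986, chr15:78399556-78405907) lies on the minus strand and Mpst (ENSMUSG00000071711, chr15:78406416-78414013) on the plus strand. The genes point away from each other with 508 bases between them. Their coding sequences in the GENCODE M21 annotation (GRCm38) are 891 bases each without the stop codon, and 595 of 869 aligned bases, 68.5%, are identical. The first pair of lines shows the 60-base window in which they are most alike, coding bases 618 to 677, with the 11 bases that differ in capitals. The second pair shows coding bases 715 to 771 around the catalytic cysteine, whose codon at bases 742 to 744 is in capitals.
Tst most alike: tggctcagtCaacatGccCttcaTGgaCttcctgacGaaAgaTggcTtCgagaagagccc
Mpst most alike: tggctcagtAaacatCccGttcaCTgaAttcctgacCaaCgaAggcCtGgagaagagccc
Tst active site: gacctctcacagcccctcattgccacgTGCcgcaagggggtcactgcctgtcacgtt
Mpst active site: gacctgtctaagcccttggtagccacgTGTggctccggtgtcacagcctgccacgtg
The longest identical run of the coding sequences was 18 bases. In 1 annotated transcript of each gene, of 1144 bases for Tst and 1753 for Mpst, no run of 31 bases was shared between them, and 0 of the 1114 runs of Tst occurred in a GENCODE M21 transcript of any other gene. These transcripts are shorter than the 3163 and 2143 bases over which the deposited table counts Tst and Mpst, and the rest was not compared.

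Expressed per transcript length, as the authors' deposited FPKM (fragments per kilobase of transcript, scaled to library size), the 7 genes spanned a wide range of levels. In Control the order of the mean FPKM was Sqor 37.1, Mpst 26.1, Tst 12.6, Suox 11.8, Ethe1 5.20, Cbs 2.8 and Cth 1.94. Across libraries the ranges of Sqor and Mpst, of Mpst and Tst, of Tst and Suox and of Cbs and Cth overlapped. Within each of the 3 libraries, Sqor was above Mpst and Mpst above Tst, whereas Tst was below Suox in 2 libraries and Cbs below Cth in 1, so the order of these last pairs was not stable. The transsulfuration enzymes Cbs and Cth were thus the least abundant of the set, and the sulfide oxidase Sqor was among the most abundant. In Cdo1AKO the order was Mpst 18.8, Sqor 18.4, Suox 9.32, Ethe1 5.47, Tst 3.29, Cth 2.30 and Cbs 1.57. Tst went from the third place, level with Suox, to the fifth, where its 3 values of 2.98, 4.01 and 2.87 FPKM were below every value of Suox and Ethe1. Places between genes depend on the length that divides each count. For Tst the deposited length was 3163 bases, against 1144 in its annotated transcript, whereas the 2 lengths were equal for Suox and Ethe1. A shorter length would raise Tst in both groups, so its place among the 7 is not firm. The ranges of Mpst and Sqor, of Tst and Cth and of Cth and Cbs overlapped in that group, and none of these pairs had the same order in all 3 libraries.

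**Figure D1:**
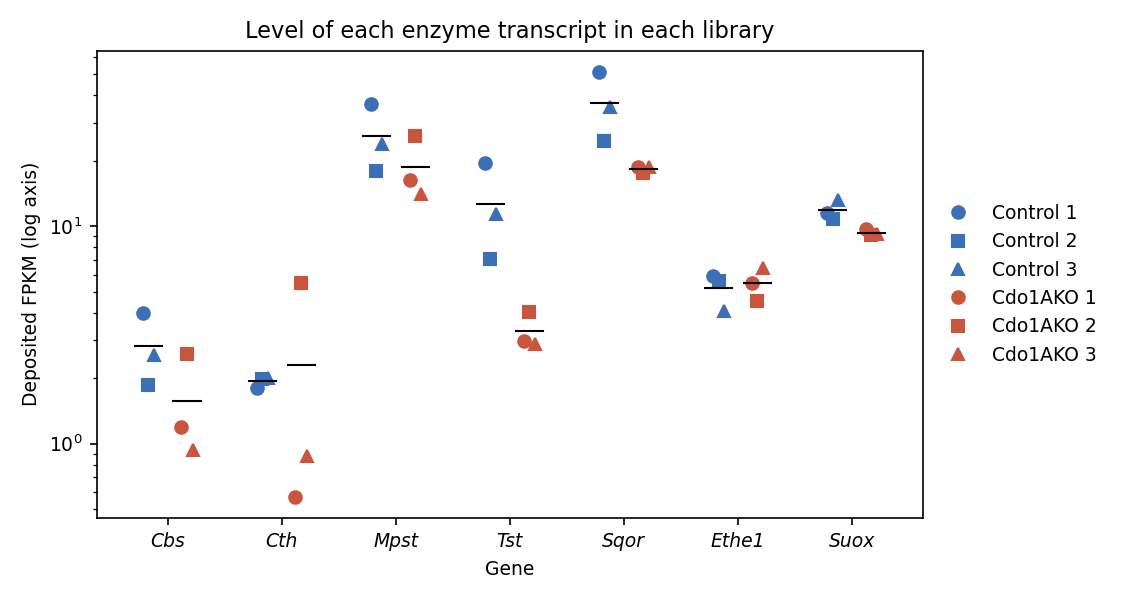
Deposited FPKM of the 7 enzymes on a log axis, with 1 point for each of the 3 Control and 3 Cdo1AKO libraries and black bars at the group means. Tst shows the widest gap between groups, from a mean of 12.6 to 3.29, and Cth in Cdo1AKO 2 lies far above the other Cdo1AKO points at 5.46.

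Of the transsulfuration pair, Cbs (ENSMUSG00000024039, chr17:31612623-31637199, minus strand) was measured at 13.3, 6.31 and 8.69 CPM in Control 1 to 3 and at 4.0, 8.75 and 3.13 CPM in Cdo1AKO 1 to 3. Cdo1AKO 2 lay within the Control range and the other Cdo1AKO libraries lay below it. The log2 fold change was -0.83 ± 0.48 (SE), with an adjusted p of 0.598 by edgeR. Without Cdo1AKO 2 it was -1.40, with an adjusted p of 0.111, and without Control 1, the highest library, it was -0.52, with an adjusted p of 0.984. In the 4 libraries that hold lymph node transcripts, 2 of each group, it was -1.07 and passed the test with an adjusted p of 0.0359.

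Cth (ENSMUSG00000028179, chr3:157894248-157925077, minus strand) had 5.03, 5.62 and 5.68 CPM in Control and 1.60, 15.4 and 2.47 CPM in Cdo1AKO. The Control libraries were close to each other, and the Cdo1AKO libraries lay on both sides of them, with Cdo1AKO 2 far above every Control library. The log2 fold change over all 6 libraries was 0.25 ± 0.83 (SE), with an adjusted p of 0.932 by edgeR, so no direction can be given for the group. Without Cdo1AKO 2 it was -1.42, with an adjusted p of 0.0884, and it was 0.71 without Cdo1AKO 1 and 0.64 without Cdo1AKO 3. In the 4 libraries with lymph node transcripts Cth passed the test at a log2 fold change of -1.48 and an adjusted p of 0.0189. A gene model of uncertain status (TEC) on the same strand, Gm43314, overlaps Cth, and it held at most 12 counts in any library, against 32 to 239 for Cth.

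Tst, also called rhodanese and known in mice for higher adipose levels in lean lines, showed the largest difference among the 7 in the group-only fit. It was measured at 61.5, 22.6 and 36.5 CPM in Control and at 9.45, 12.8 and 9.11 CPM in Cdo1AKO. The 3 Cdo1AKO values were all below the lowest Control value, and Control 1 was the highest by a wide margin. The group means were 40.2 ± 19.7 and 10.5 ± 2.04 CPM (SD, n = 3 each), and the log2 fold change of -1.94 ± 0.39 (SE) corresponds to a level 3.84-fold lower in Cdo1AKO. The quasi-likelihood test of edgeR gave an unadjusted p of 0.00211 and an adjusted p of 0.286 over all genes, above the threshold of 0.05. DESeq2, run on the same counts and genes, gave an adjusted p of 7.02e-04. The authors' deposited table lists a log2 fold change of -1.95 with an adjusted p of 9.84e-04. With a term for lymph node transcripts in the edgeR fit the value was -1.87 with an adjusted p of 0.0222. In the 4 libraries that hold those transcripts it was -1.67 with an adjusted p of 0.00719. Leaving out each library in turn gave values from -2.23 to -1.51, with no adjusted p below 0.0933.

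Mpst, the neighbour of Tst, differed less. It had 78.0, 38.7 and 51.7 CPM in Control and 35.1, 56.1 and 30.4 CPM in Cdo1AKO. Cdo1AKO 2 lay above Controls 2 and 3, so the groups overlapped. The log2 fold change was -0.47 ± 0.34 (SE), with an adjusted p of 0.671 by edgeR. It was -0.78 without Cdo1AKO 2, -0.30 without Cdo1AKO 3 and -0.17 without Control 1, the highest library. The adjusted p by edgeR was 0.12 with the lymph node term and 0.0911 in the 4 libraries with lymph node transcripts, each at -0.47. Mpst did not pass the test under any alternative setting.

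The ratio of the paralogs within a library does not depend on how libraries are scaled. For every Mpst count there were 0.788, 0.583 and 0.706 Tst counts in Control and 0.269, 0.228 and 0.300 in Cdo1AKO. The groups did not overlap, and Cdo1AKO 2, which stood apart for Cbs, Cth and Mpst, was close to the other Cdo1AKO libraries here. The mean log2 ratio was -0.54 ± 0.22 in Control and -1.92 ± 0.20 in Cdo1AKO (SD, n = 3 each), a difference of -1.38, or 2.60-fold. The exact permutation test over the 6 libraries gave a two-sided p of 0.1, which is the smallest that 3 against 3 libraries can give. The ratio shows that the paralogs differed unequally between the groups, not that Mpst stayed the same.

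**Figure D2:**
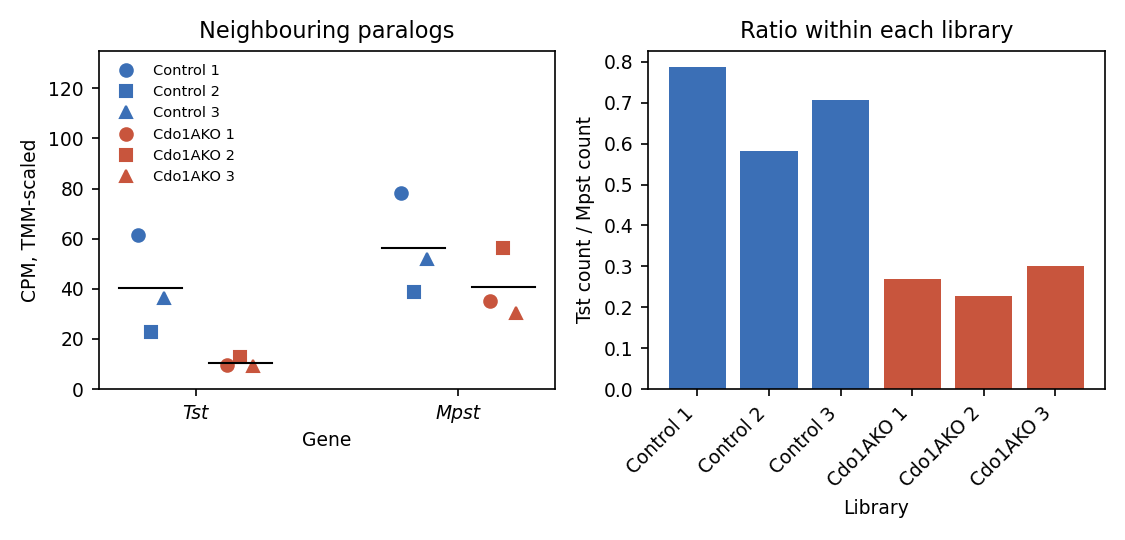
Left, TMM-scaled CPM of Tst and Mpst in each library, with black bars at the group means. Right, the count of Tst divided by the count of Mpst in each library, from 0.583 to 0.788 in Control and from 0.228 to 0.300 in Cdo1AKO.

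Among the enzymes that oxidise sulfide, Sqor (ENSMUSG00000005803, chr2:122765237-122809569, plus strand), which passes electrons from sulfide to ubiquinone, was measured at 209, 102 and 146 CPM in Control and at 76.9, 72.4 and 77.3 CPM in Cdo1AKO. The Cdo1AKO libraries were nearly equal and all below the lowest Control. The means were 152 ± 53.6 and 75.5 ± 2.74 CPM (SD, n = 3 each), and the log2 fold change was -1.01 ± 0.27 (SE), a level 2.01-fold lower. The unadjusted p by edgeR was 0.00827 and the adjusted p was 0.345. DESeq2 gave an adjusted p of 0.0474, and the authors' deposited table lists 0.0735 with a log2 fold change of -1.01. With the lymph node term in edgeR it was -0.96 with an adjusted p of 0.0593, and in the 4 libraries with lymph node transcripts -0.69 with an adjusted p of 0.0375.

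Ethe1 (ENSMUSG00000064254, chr7:24587543-24608925, plus strand), the persulfide dioxygenase whose loss in people causes ethylmalonic encephalopathy, had 8.71, 8.40 and 6.17 CPM in Control and 8.20, 6.75 and 9.55 CPM in Cdo1AKO. The values were interleaved. The log2 fold change was 0.07 ± 0.24 (SE), with an adjusted p of 0.928 by edgeR, and its sign turned without Control 3 or without Cdo1AKO 3. The value was 0.19 without Cdo1AKO 2 and 0.28 in the 4 libraries with lymph node transcripts. Of the runs of 31 bases in its compared transcript, 4.75% also occur in another gene, Zfp575, which overlaps it on the opposite strand and held at most 5 counts in any library.

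Suox (ENSMUSG00000049858, chr10:128669894-128674073, minus strand), the molybdenum enzyme that completes the route to sulfate, had 28.7, 27.1 and 33.6 CPM in Control and 24.3, 22.8 and 23.1 CPM in Cdo1AKO. All Cdo1AKO libraries lay below all Control libraries, by a small margin. The log2 fold change was -0.35 ± 0.14 (SE), with an unadjusted p of 0.0517 and an adjusted p of 0.487 by edgeR. Suox did not pass the test under any alternative setting.

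Over the 7 genes, 5 log2 fold changes were negative and 2 positive, with a median of -0.47. Over all 16623 genes tested, 44.0% were negative and the median was 0.06. The quasi-likelihood test of edgeR called 0 of the 7 genes, and it called 0% of all genes, although 1724 genes had an unadjusted p under 0.05 and the smallest adjusted p was 0.196. Tst and Sqor were lower at an unadjusted p under 0.05, as were 5.71% of all genes. The groups did not overlap and Cdo1AKO was lower for Tst, Sqor and Suox, and for 9.73% of all genes. DESeq2 called Tst and Sqor, against 2.36% of all genes. With a lymph node term, edgeR called Tst, against 4.13% of all genes. The edgeR fit on the 4 libraries with lymph node transcripts called Cbs, Cth, Tst and Sqor, all lower, against 15.3% of the genes it tested. At an adjusted p under 0.05 the authors' deposited table holds Tst alone of the 7, against 1% of the genes with a value.

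**Figure D3:**
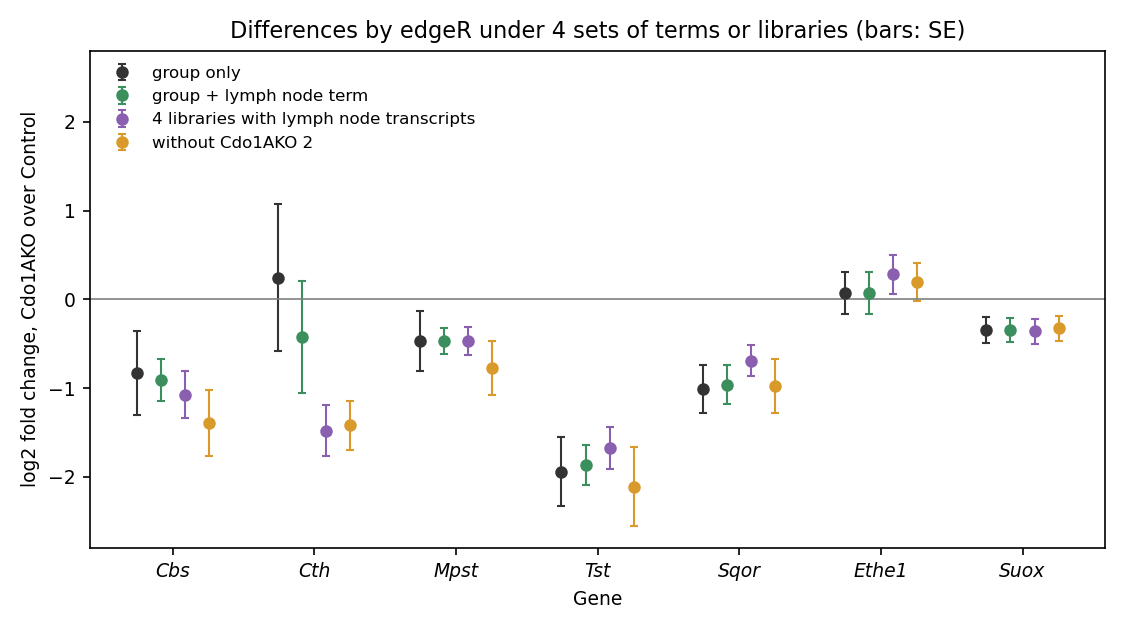
log2 fold change of each enzyme, Cdo1AKO over Control, by edgeR with group only, with a lymph node term, in the 4 libraries with lymph node transcripts, and without Cdo1AKO 2; bars are standard errors. Cbs, Mpst, Tst, Sqor and Suox lie below 0 in all 4, and Cth moves from 0.25 to -1.42 when Cdo1AKO 2 is left out.

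Adipocyte markers stood lower in Cdo1AKO 1 and 3 as well. All 10 had a negative log2 fold change, with a median of -0.45. Cdo1AKO 2, the library highest for Cth and in its group highest for Cbs, Mpst and Tst, had 39640 CPM of them. Of this sum, 22120 CPM were Fabp4. In Cdo1AKO 2, Fabp4, Cidec and Retn were above every Control library, and Acvr1c, Adrb3 and Pnpla2 were below every Control library. The other adipocyte markers lay within the Control range. Set against 1000 counts of the summed adipocyte markers, Tst had 1.45, 0.786 and 1.06 counts in Control and 0.512, 0.323 and 0.467 in Cdo1AKO. It remained separate between the groups, with a log2 difference of -1.32, and of the 7 it alone did so; by the same measure 1.51% of all genes were lower with no overlap. Sqor had 4.92, 3.54 and 4.26 counts in Control and 4.17, 1.83 and 3.96 in Cdo1AKO on this scale, a log2 difference of -0.43 with overlap. The log2 difference was 0.055 for Mpst, 0.18 for Suox, 0.59 for Ethe1, -0.39 for Cbs and 0.049 for Cth, each with overlapping groups. The signs of Mpst and Suox were thus opposite to those in CPM. This scale, in which Fabp4 was the largest marker in every library, was chosen after the data were seen, and it carries no test.

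**Figure D4:**
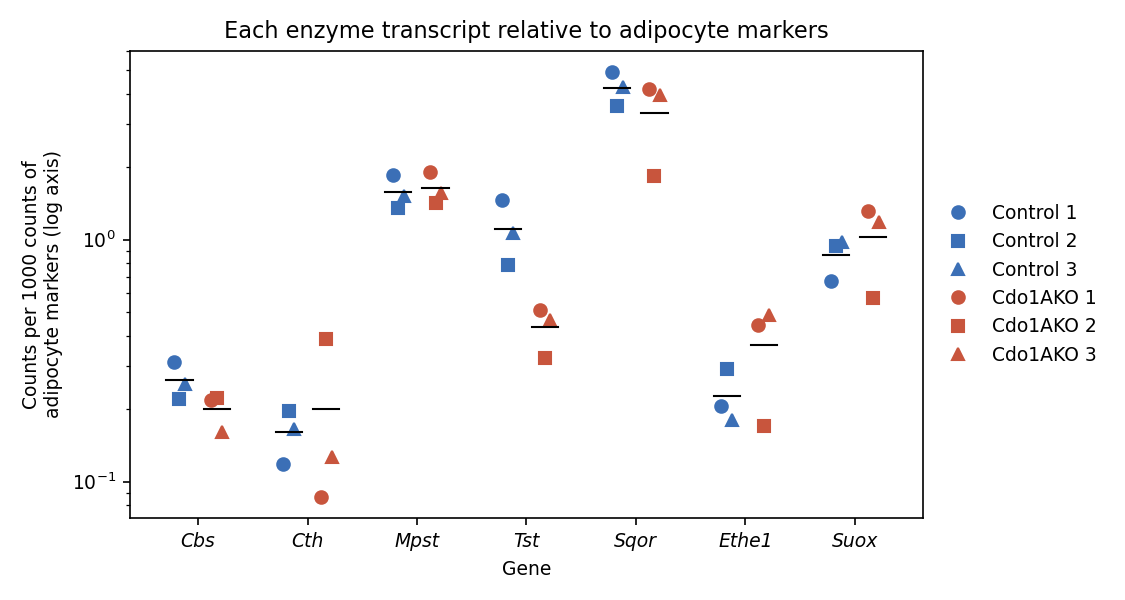
Counts of each enzyme per 1000 counts of 10 adipocyte markers in the same library, on a log axis, with black bars at the group means. Tst is separate between the groups (0.786 to 1.45 in Control, 0.323 to 0.512 in Cdo1AKO), and the other 6 overlap.

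Markers of other cell types also differed between libraries, and their part in the results was not tested. The 7 T cell markers all had positive log2 fold changes, and they summed to 8.96 to 278 CPM in Control and 7.78 to 716 CPM in Cdo1AKO. Macrophage markers summed to 522 to 745 CPM in Control and 795 to 842 CPM in Cdo1AKO, without overlap. Schwann cell markers summed to 48.7 to 84.3 CPM in Control and 20.1 to 34.9 CPM in Cdo1AKO, also without overlap. Lymph node and B cell markers spanned 6.38 to 1295 CPM in Control and 7.72 to 870 CPM in Cdo1AKO. Fibroblast, endothelial and epithelial sums overlapped between the groups, as did those of skeletal muscle. Of the muscle markers, Myh4 was at 0 in every library and Ckm in every library but Cdo1AKO 2. Acta1 made up most of the muscle sum in each library.

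The genes around the 7 enzymes were described in 5 lists. By the group-only edgeR fit none of the lists held a called gene, so counts at an unadjusted p under 0.05 are given. Upstream, the methionine cycle makes the homocysteine that Cbs uses. Of 12 listed genes 9 were tested, and the liver-type genes Mat1a, Bhmt and Bhmt2 were not. The list's median log2 fold change was 0.02, and 4 of the 9 were negative. At an unadjusted p under 0.05 Cdo1AKO was lower for 3 genes and higher for 1, against 5.71% and 4.66% of all genes. Mat2a, which makes S-adenosylmethionine outside the liver, had 549, 460 and 480 CPM in Control and 293, 347 and 324 CPM in Cdo1AKO. The groups did not overlap, and its log2 fold change of -0.63 ± 0.17 (SE) had an adjusted p of 0.345 by edgeR and 0.00848 by DESeq2. Ahcyl1, a relative of the hydrolase that forms homocysteine, had a value of -0.55.

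Other routes that use cysteine lead to taurine, glutathione and iron-sulfur clusters. Of 14 listed genes 13 were tested, Cdo1 among them. The median log2 fold change was -0.13, and 5 genes, the deleted Cdo1 among them, were lower and 0 higher at an unadjusted p under 0.05, against 5.71% of all genes lower. Csad, which decarboxylates the product of Cdo1 on the way to taurine, had 450, 263 and 338 CPM in Control and 159, 199 and 154 CPM in Cdo1AKO. Its groups did not overlap, and its log2 fold change was -1.04 ± 0.24 (SE), with an adjusted p of 0.345 by edgeR, 0.0121 by DESeq2 and 0.0301 by edgeR with the lymph node term. Kyat3, an aminotransferase that also cleaves cysteine conjugates, had 22 to 36.8 CPM in Control and 10.8 to 17.2 CPM in Cdo1AKO. Its log2 fold change was -1.16, with an adjusted p of 0.345 by edgeR, 0.0208 by DESeq2 and 0.0225 with the lymph node term.

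The list of other sulfur-transfer and persulfide proteins had a median of -0.12. Of 12 tested genes 1 was higher and 0 lower at an unadjusted p under 0.05, against 4.66% of all genes higher and 5.71% lower. The gene was Tstd3, a protein with a rhodanese domain, at 2.76, 4.55 and 4.29 CPM in Control and 6.65, 14.2 and 6.15 CPM in Cdo1AKO. Cdo1AKO 2 was the highest library, and the log2 fold change of 1.22 (adjusted p 0.416 by edgeR) was 0.72 without it. The mitochondrial peroxiredoxin Prdx3 had a value of -0.54, and Cars2, the mitochondrial cysteinyl-tRNA synthetase, 0.33.

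Ubiquinone takes up the electrons that Sqor removes from sulfide. Of the 13 genes of its synthesis, all were tested, 11 had a negative log2 fold change and the median was -0.42. Of all genes tested, 44.0% were negative, and the 10 adipocyte markers were all negative with a median of -0.45. At an unadjusted p under 0.05 there were 4 lower and 0 higher, against 5.71% of all genes lower. Coq5, a methyltransferase of the pathway, had 64.9, 45 and 56.2 CPM in Control and 33.4, 40.5 and 32.9 CPM in Cdo1AKO. Its groups did not overlap, and its log2 fold change of -0.64 had an adjusted p of 0.362 by edgeR and 0.0452 with the lymph node term. Coq4 and the kinase-like Coq8a had values of -0.66 and -0.60.

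Suox needs the molybdenum cofactor. Of 9 genes for its synthesis or for the other enzymes that carry it, 7 had a negative log2 fold change, against 44.0% of all genes, with a median of -0.25. At an unadjusted p under 0.05, 1 was lower and 1 higher, against 5.71% and 4.66% of all genes. Gphn, which inserts molybdenum in the last step and also anchors receptors at synapses, had 71.9, 45.7 and 58.7 CPM in Control and 29.0, 36.3 and 31.2 CPM in Cdo1AKO. Its groups did not overlap, and its log2 fold change of -0.87 had an adjusted p of 0.345 by edgeR, 0.0273 by DESeq2 and 0.0326 with the lymph node term. Marc1, the amidoxime reductase now named Mtarc1, lay in the other direction, at 5.83, 12.6 and 11.3 CPM in Control and 23.5, 64.9 and 21.0 CPM in Cdo1AKO. Its log2 fold change was 1.88, or 1.17 without Cdo1AKO 2, with an adjusted p of 0.362 by edgeR, 0.0248 by DESeq2 and 0.10 with the lymph node term. Xdh, which makes uric acid, had a value of -0.52.

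**Figure D5:**
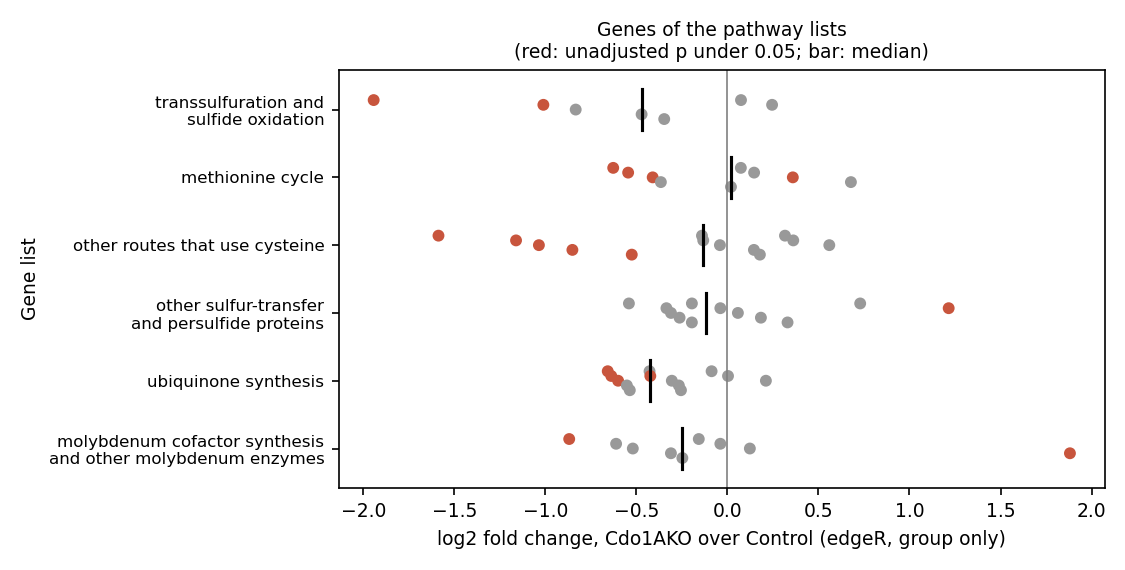
log2 fold change of each tested gene in the 7-enzyme set and in the 5 lists around it (group-only edgeR fit), with red points for an unadjusted p under 0.05 and black bars for medians. The ubiquinone list has a median of -0.42, near the -0.47 of the 7 enzymes, and the methionine cycle has a median of 0.02. The 10 adipocyte markers, which are not drawn, had a median of -0.45 in the same fit.

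Likeness to other genes was measured as Pearson's r of log2(CPM + 1) over the 6 libraries, among 11196 protein-coding genes with a mean of at least 5 CPM. The points share libraries, groups and tissue makeup, and with 6 points high values are common. Tst was most like Adig, an adipocyte-enriched gene, at 0.999, and Csad and Sun1, each at 0.998, and 732 genes exceeded 0.9. Sqor was most like Impa1, Ift81 and Egln2, each at 0.998. Cbs was most like Mrpl46 and Rnd3, each at 0.999, and Ldhb at 0.997, and Mpst was most like Rabac1 at 0.997, Cct7 at 0.996 and Nit1 at 0.995. Cth was most like the endoplasmic reticulum chaperone Hspa5 at 0.996, followed by Ypel2 and Slc18b1 at 0.994, and Cdo1AKO 2 was the library highest for Cth. Suox was most like Mboat7, Gemin5 and Arih2, with r from 0.990 to 0.991. Ethe1 had the fewest like genes: 23 exceeded 0.9, led by Rpl36 and Hdac8 at 0.989 and Zrsr2 at 0.976.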

How the data were processed

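Bulk RNA-seq of iWAT was analysed from the authors' deposited table, which holds raw counts per gene, FPKM, and the authors' own log2 fold change and p-value columns. The submitters' processing notes name mm10, DESeq2 1.20.0, featureCounts 1.5.0-p3 and HISAT2 2.0.5, without roles; no source used here gives the strand setting. Counts were fitted with edgeR 4.0.16 in R 4.3.3 (TMM scaling, filterByExpr by group, quasi-likelihood test, Benjamini-Hochberg adjustment over 16623 genes, threshold 0.05), with group as the only term. The Tst to Mpst ratio was tested by exact permutation. Alternatives were RLE or total count scaling, other count filters, DESeq2 1.42.0, limma 3.58.1 voom, robust estimation, a replicate block, each library left out, and a lymph node term or only libraries with lymph node transcripts (median marker CPM above 5); levels relative to adipocyte markers were added after the data were seen. The enzymes, lists and tests were chosen with earlier results of these data known. Named genes are the 7 enzymes, Cdo1, the 3 genes of smallest p in each list (1 is not reported here), and the 3 genes most like each enzyme. Marc1 was matched by synonym. Sequences came from GENCODE M21 and were aligned with Biopython 1.88. The test was tested on simulated data.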

Additional observations from a re-analysis of the deposited data

How the results depend on the processing

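The group-only edgeR test called 0 genes, and 0 under every other scaling, filter, voom, robust estimation and each library left out. DESeq2 called 392 (137 higher, 255 lower), the lymph node term 686, and the 4 libraries with lymph node transcripts 2617. These were 2.36%, 4.13% and 15.3% of the genes each fit tested. Of the 7 enzymes these fits called 2, 1 and 4. The 5 lists, in the order given above, held 9, 13, 12, 13 and 9 genes tested in the group-only fit. In the lists, DESeq2 called 1 methionine cycle gene, 2 of other cysteine routes and 2 of the molybdenum list, all lower except Marc1. The lymph node term called 3 of other cysteine routes, 1 of ubiquinone synthesis and 1 of the molybdenum list, all lower. The 4 libraries called 3 methionine cycle genes, 6 of other cysteine routes and 1 sulfur-transfer gene. They also called 7 of ubiquinone synthesis and 4 of the molybdenum list. Among the list genes they called, Got2 and Marc1 were higher and the others lower. Log2 fold changes that passed the threshold were -1.94 (DESeq2), -1.87 (lymph node term) and -1.67 (4 libraries) for Tst, -1.01 (DESeq2) and -0.69 (4 libraries) for Sqor, -1.07 (4 libraries) for Cbs and -1.48 (4 libraries) for Cth. Cth was also negative at -0.54 (voom), -0.43 (lymph node term) and -1.42 (without Cdo1AKO 2), and spanned -1.42 to 0.71 over the left-out libraries; Ethe1 spanned -0.069 to 0.19. Relative to adipocyte markers, Mpst was at 0.055 and Suox at 0.18. The cause of these differences was not tested. The Tst to Mpst ratio kept its direction under every alternative run.

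The labels do not say that the replicate numbers pair the samples. Deviations from the group means correlated at -0.658, -0.659 and 0.416 between same-numbered libraries, and no library correlated best with its own number. The signs follow the lymph node split, with 0.692 between Control 1 and Cdo1AKO 2, so they cannot decide whether the samples were paired. With the replicate block 0 genes were called, 909 had an unadjusted p under 0.05, Tst was at -1.85 and Cth at -0.50. The depth left 32 to 239 counts for Cth and 57 to 216 for Cbs, against 1125 to 3399 for Sqor.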
